A study of Mus musculus with 768 samples.

Results

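The Hippo pathway genes described here were Yap1, Wwtr1 (which encodes Taz), the 4 Tead genes (Tead1, Tead2, Tead3 and Tead4), Lats1, Lats2 and Amotl2. They were chosen by name, and all 9 were found among the 25700 genes of the count table. The data were full-length single-cell RNA libraries (Smart-Seq2) of mouse sciatic nerve Schwann cells (SCs), 384 cells on each of 2 plates, and the labels give each plate as a biological replicate. The mice were of the C57bl/6J strain, at postnatal day 60, and carried ReYFP Tg/+ and also βAct-DsRed Tg/+ together with a Cre transgene active in the Schwann cell lineage, which switched on eYFP. For each plate, nerves of 2 male and 2 female mice were pooled, dissociated with enzymes, and sorted for eYFP, so all cells shared this genotype and there was no untreated or mutant group. The comparison made was between myelinating and non-myelinating cells. The classes were rebuilt by clustering with the Hippo genes left out, and named from markers as mSC-like (myelinating) and nm(R)SC-like (non-myelinating, or Remak).

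Yap and Taz are paralogous coactivators that do not bind DNA themselves. They enter the nucleus and act through the Tead transcription factors, which read a short core motif in promoters and enhancers. Lats1 and Lats2 are the kinases that phosphorylate Yap and Taz and hold them in the cytoplasm, and Amotl2 is a junction-associated protein that binds Yap and Taz. LATS2 and AMOTL2 are also known Yap and Taz target genes in other cells. In Schwann cells, Yap, Taz and Tead1 are known for their part in radial sorting of axons and in myelination.

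The Tead core was looked for as GGAATG or its reverse complement CATTCC in the RefSeq promoters of GRCm38.p6, taking the 250 bases before each start. Of 32851 such windows, 12.6% held it, so a match was not rare. Of 13 genes looked for, 10 had a window, and 7 of these were members. The windows below are those of the members Yap1, Wwtr1 and Amotl2, shown because they hold 1 match each, and of 2 target genes described further on, Ccn1 and Axl. They run 5′ to 3′ in the direction of the gene, with the match in capitals, at chr9:8004597-8004846 (minus strand) for Yap1, chr3:57575911-57576160 (minus) for Wwtr1, chr9:102717554-102717803 (plus) for Amotl2, chr3:145649986-145650235 (minus) for Ccn1 and chr7:25788734-25788983 (minus) for Axl.
Yap1: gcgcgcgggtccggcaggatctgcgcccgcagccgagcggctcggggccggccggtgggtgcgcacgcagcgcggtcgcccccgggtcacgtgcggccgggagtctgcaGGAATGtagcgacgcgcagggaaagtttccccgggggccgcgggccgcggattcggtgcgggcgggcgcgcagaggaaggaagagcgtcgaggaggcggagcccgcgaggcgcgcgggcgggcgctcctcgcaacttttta
Wwtr1: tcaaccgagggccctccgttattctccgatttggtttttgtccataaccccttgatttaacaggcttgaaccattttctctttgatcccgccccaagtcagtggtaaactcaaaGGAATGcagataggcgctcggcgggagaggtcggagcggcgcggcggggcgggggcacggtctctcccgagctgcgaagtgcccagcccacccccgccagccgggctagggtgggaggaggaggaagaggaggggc
Amotl2: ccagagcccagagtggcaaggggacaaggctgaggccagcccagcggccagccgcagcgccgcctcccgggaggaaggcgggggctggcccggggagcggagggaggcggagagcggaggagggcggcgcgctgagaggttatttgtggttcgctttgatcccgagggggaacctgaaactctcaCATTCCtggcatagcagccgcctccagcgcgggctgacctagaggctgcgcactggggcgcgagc
Ccn1: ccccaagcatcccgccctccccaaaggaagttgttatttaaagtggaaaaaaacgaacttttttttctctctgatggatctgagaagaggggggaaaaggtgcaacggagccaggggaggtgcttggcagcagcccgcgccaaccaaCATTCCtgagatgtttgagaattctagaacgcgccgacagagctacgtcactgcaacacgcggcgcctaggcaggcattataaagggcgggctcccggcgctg
Axl: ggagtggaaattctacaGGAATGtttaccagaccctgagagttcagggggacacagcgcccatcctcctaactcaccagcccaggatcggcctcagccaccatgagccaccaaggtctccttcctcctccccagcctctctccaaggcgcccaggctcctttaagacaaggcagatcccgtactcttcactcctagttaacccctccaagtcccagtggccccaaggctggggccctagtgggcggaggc
Counted from the start, the match began at position -141 in Yap1, -136 in Wwtr1 (-170 from its other annotated start, whose window holds the same match), -65 in Amotl2, -103 in Ccn1 and -233 in Axl. The windows of Tead2, Lats1, Lats2 and F3 held no match, and those of Tead3 differed by start site. A match is a description of these letters and not evidence that a Tead protein binds there.

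After the requirement of 1500 detected genes, 674 cells were kept. Plate 1 gave 209 nm(R)SC-like and 131 mSC-like cells, and plate 2 gave 256 and 78. The plates differed in depth, with a median of 158689 reads per kept cell on plate 1 and 452484 on plate 2, although plate 2 cells had fewer detected genes (median 2295 against 3442). Counts were summed over the cells of each class on each plate, which gave 4 sums of 28740347 to 152825312 reads. The summed level of the 11 mSC markers was 69454 and 69824 CPM (counts scaled to a common library total) in the mSC-like sums, against 13032 and 7872 CPM in the others. Each of the 11 was higher in mSC-like cells on both plates, but Pmp22 alone gave 56990 and 55800 CPM of the mSC-like sums. The 9 nm(R)SC markers summed the other way, to 3153 and 2665 CPM against 251 and 293 CPM for mSC-like cells. Of these, Ednrb hardly differed on plate 2 (284 against 280 CPM), and Gap43 reached at most 1.98 CPM. The other nm(R)SC markers were lower in mSC-like cells on both plates. The nm(R)SC-like cluster led by Scn7a carried more of the mSC list on plate 1 than on plate 2 (29266 against 9062 CPM), with the gene Mfap5 at 739 against 0.0721 CPM, while its nm(R)SC list was at 3011 and 2836 CPM. Results were therefore also computed without this cluster, an alternative chosen after seeing the data. Of the defining genes of other nerve cells, Cdh5 and Rgs5 had no read, and Pdgfra, Cd34, Ptprc, Aif1 and Myh11 stayed under 1 CPM in all 4 sums. The summed lists ranged from 1.38 to 32.5 CPM for endothelial, 4.63 to 53.4 CPM for fibroblast, 7.55 to 19.9 CPM for immune and 6.10 to 54.5 CPM for mural markers, whose 54.5 CPM was in mSC-like cells of plate 1. The highest single genes were Pdgfrb (mural), at 44.5 CPM and scored in 19.6% of the mSC-like cells of plate 1, Kdr (endothelial), at 32.2 CPM and scored in 9.78% of the same cells, and Dcn (fibroblast), at 40.2 CPM and scored in 6.11% of the nm(R)SC-like cells of plate 1, where a cell was scored at 5 or more reads after thinning to 100000. Their part in the results was not tested. The 2 perineurial markers summed to 205 to 314 CPM, nearly all from Itgb4, which SCs also express. The 4 general SC markers, Sox10 among them, were high in both classes.

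None of the 9 genes passed the test of a difference between the classes. In the edgeR quasi-likelihood test with plate as a block and Benjamini-Hochberg adjustment over all genes tested, 0 of the 9 were called, against 2.04% of the 13350 genes tested (272). At an unadjusted p under 0.05 there were 0 of 9, where the background was 11.2%, and by DESeq2 0 of 9, where it was 10.5%. The 9 log2 ratios (mSC-like over nm(R)SC-like) had a median of 0.37, with 6 above 0 and 3 below, beside a median of -0.05 over all genes tested. A p above the threshold does not show equal levels. The 95% intervals of the fold lay between 0.299 and 3.11 for Wwtr1, Tead1, Lats2 and Amotl2, and were wider for the other 5.

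**Figure D1:**
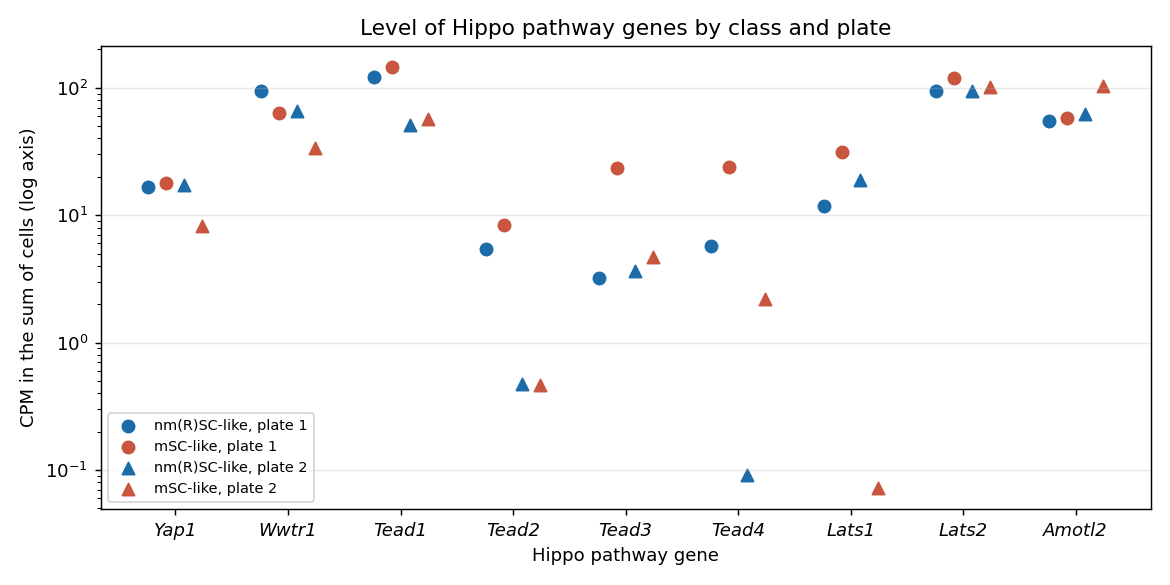
CPM (log axis) of the 9 Hippo pathway genes in the summed cells of each class (blue nm(R)SC-like, red mSC-like) on each plate (circles plate 1, triangles plate 2), 1 point per sum. Wwtr1, Tead1, Lats2 and Amotl2 sit between 33.7 and 146 CPM in all 4 sums, while Tead2, Tead3, Tead4 and Lats1 spread more widely.

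Of the coactivators, Wwtr1 gave 94.4 CPM (nm(R)SC-like) against 63.7 CPM (mSC-like) on plate 1, and 65.7 against 33.7 CPM on plate 2. In the pairs of values that follow, nm(R)SC-like stands first. It was lower in mSC-like cells on both plates, but the plates differed from each other by nearly as much, and the nm(R)SC-like sum of plate 2 lay close to the mSC-like sum of plate 1. The log2 ratio was -0.62 ± 0.46 (SE, 2 plates; edgeR adjusted p = 0.752), a fold of 0.651 with a 95% interval from 0.299 to 1.42. With a minimum of 2500 genes per cell the log2 ratio was -1.35, and it was -0.27 in sums of thinned cells, with no call in either. Yap1 was at 16.7 and 17.95 CPM on plate 1 and at 17.1 and 8.16 CPM on plate 2. Its mSC-like value was the highest of the 4 on plate 1 and the lowest on plate 2. The log2 ratio was -0.33 ± 1.11 (SE; edgeR adjusted p = 0.983), with an interval of -3.06 to 2.39. A single cell gave 34.4% of the Yap1 reads of the mSC-like sum of plate 2. A different cell, in the other mSC-like cluster, gave 47.8% of the Wwtr1 reads of that sum.

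Of the Tead genes, Tead1 was at 122 and 146 CPM on plate 1, and at 51.5 and 56.6 CPM on plate 2. The classes lay close to each other within each plate, and both plate 2 values were below both plate 1 values. Its log2 ratio between classes was 0.34 ± 0.38 (SE; edgeR adjusted p = 0.880), a fold interval of 0.670 to 2.39. Tead2 was at 5.44 and 8.35 CPM on plate 1 and at 0.471 and 0.468 CPM on plate 2. Its exons overlap those of Cd37 on the other strand, and the strand setting of the counting is not given, so some of these few reads could belong to Cd37.

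Tead3 and Tead4 were higher in mSC-like cells on both plates, by amounts that the 2 plates did not settle. Tead3 was at 3.21 and 23.3 CPM on plate 1, and at 3.67 and 4.68 CPM on plate 2. The plate 2 values of Tead3 rested on few cells. A single cell gave 57.5% of the 471 reads of the nm(R)SC-like cluster led by Apoe there. Another gave 47.4% of the 194 reads of the mSC-like cluster led by Mfap5. The log2 ratio was 1.75 ± 1.67 (SE; edgeR adjusted p = 0.838), since the plate 2 difference was small. Tead4 was at 5.74 and 23.9 CPM on plate 1 and at 0.0916 and 2.20 CPM on plate 2. The nm(R)SC-like sum of plate 2 held 14 Tead4 reads, of which 1 cell gave 92.9%. The mSC-like value of plate 2 came from 1 cell in each of the 2 mSC-like clusters, with 53 and 69 reads. The log2 ratio of Tead4 was 3.43 ± 1.83 (SE; edgeR adjusted p = 0.598, unadjusted p = 0.109), with an interval of -1.04 to 7.90, the lowest p of the 9 genes. By DESeq2 its adjusted p was 0.0889. Its ratio was 1.21 with a minimum of 2500 genes per cell and 5.32 without the Scn7a-led cluster, again with no call.

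The kinases differed from each other in how steady their sums were. Lats2 was at 93.8 and 119 CPM on plate 1 and at 94.6 and 102 CPM on plate 2, the narrowest range of the 9. A single cell gave 51.3% of the plate 2 Lats2 reads of the mSC-like cluster led by Emid1. This cluster held 61 of the 78 mSC-like cells there. The log2 ratio of Lats2 was 0.37 ± 0.36 (SE; edgeR adjusted p = 0.840), a fold interval of 0.703 to 2.38. Lats2 shares exon positions with the predicted gene Gm49361 on the same strand, so its count is uncertain to that extent. Lats1 was at 11.9 and 31.6 CPM on plate 1, and at 18.9 and 0.0720 CPM on plate 2. The last value is 4 reads, all in 1 of 78 cells, and Lats1 was thus higher in mSC-like cells of plate 1 and lower in those of plate 2. Its log2 ratio was -2.94 ± 4.26 (SE; edgeR adjusted p = 0.928).

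Amotl2, the scaffold protein, was at 55.4 and 57.7 CPM on plate 1 and at 61.8 and 104 CPM on plate 2. The mSC-like sum of plate 2 stood above the other 3. In that sum, a single cell gave 30.1% of the Amotl2 reads of the Emid1-led cluster. Another cell gave 63.8% of those of the mSC-like cluster led by Mfap5. The log2 ratio of Amotl2 was 0.55 ± 0.44 (SE; edgeR adjusted p = 0.783), a fold interval of 0.690 to 3.11. The mSC-like sum of plate 2 also had the highest total of the 16 genes known to respond to tissue dissociation. This total was 27051 CPM against 10692 to 13794 CPM in the other 3 sums, led by Fos at 17060 CPM. Of the 16 genes, Jun, Jund, Atf3, Ier2, Zfp36, Hspa1a, Hspa1b and Hsph1 were not highest there, and the others were. The part of dissociation in the Amotl2 level was not tested.

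Per exon length (transcripts scaled in the same way, TPM, from the union of each gene's exons), the mean over the 4 sums put Lats2 first at 35.6 TPM, followed by Wwtr1 at 32.5, Amotl2 at 27.0 and Tead1 at 16.5 TPM. Next came Tead4 at 5.17, Lats1 at 5.12, Yap1 at 3.91, Tead3 at 3.07 and Tead2 at 1.80 TPM. Every pair of neighbours in this order overlapped over the 4 sums. Genes farther apart did not: Wwtr1, at 17.6 to 46.5 TPM, stayed above Yap1, at 2.19 to 4.73 TPM, and the lowest Lats2 value of 31.7 TPM was above the highest Tead1 value of 24.8 TPM. Tead1 ranged from 9.71 to 24.8 TPM and Tead4 from 0.0652 to 15.3 TPM, and in each single sum Tead1 was the highest of the 4 Tead genes.

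Between the plates, Tead1 and Tead4 were lower on plate 2 by 2-fold or more in both classes, 2 of the 8 members that reached 10 CPM in a sum. Over all genes at that level, 10.5% (1106 of 10535) were lower in this way, and 2.9% were higher. The log2 ratio of plate 2 to plate 1 (on CPM plus 1) was -1.23 and -1.35 for Tead1, beside medians over all genes of -0.20 and -0.25 in nm(R)SC-like and mSC-like cells. Yap1, Wwtr1, Lats2 and Amotl2 were not lower 2-fold in both. With 1 library plate per pool of mice, the animals and the plate cannot be told apart.

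The share of cells with a gene was counted after each cell was thinned to 100000 reads and a cell was scored at 5 or more reads. This left 131 nm(R)SC-like and 92 mSC-like cells on plate 1, and 239 and 74 on plate 2. The exact (Clopper-Pearson) 95% intervals, here and below, cover counting error only, since cells of a plate share pooled mice and are not replicates. Intervals that do not overlap are therefore no test of a class difference. Reads without molecular identifiers are also not independent molecules. Tead1 was the most widely detected of the 9 on plate 1, in 39.7% (31.3 to 48.6) and 44.6% (34.2 to 55.3) of the cells. On plate 2 it was in 19.7% (14.8 to 25.3) and 18.9% (10.7 to 29.7). Lats2 followed at 29.8% and 37.0% on plate 1, and at 18.4% and 24.3% on plate 2, where its mSC-like share was above that of Tead1. Amotl2 was in 22.1% and 28.3% of cells on plate 1 and in 13.4% and 21.6% on plate 2.

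Wwtr1 was detected in 22.1% and 20.7% of cells on plate 1, and in 7.95% and 10.8% on plate 2. Yap1 was detected in 9.16% and 8.70% on plate 1 and in 4.18% and 5.41% on plate 2. For both coactivators the class intervals of a plate overlapped, and the shares were lower on plate 2 in both classes. The Wwtr1 shares of plate 1 changed with the minimum of genes per cell. The cells were clustered anew for each minimum, so the class of a cell could change as well as the cells kept. With 1000 genes the shares were 30.2% and 12.1% (6.63 to 19.9), whose intervals do not overlap. With 2500 genes they were 28.2% (20.5 to 37.01) and 14.1% (7.74 to 22.95). The part of the changed classes in these shares was not tested. Without thinning, a read of Wwtr1 was found in 43.1% and 38.2% of cells on plate 1 and in 29.7% and 30.8% on plate 2. In the plate 2 cells that had a read the median level was only 4.54 and 4.35 CPM, against 128 and 57.7 CPM on plate 1, so that many of the plate 2 cells held traces. Exchange of reads between libraries could be measured on plate 1 only, where the labels name both indices of a cell. For 7 genes found almost wholly in 1 cell, another cell with the same first or second index held a further 0.0240% or 0.0324% of that cell's reads, above the 0.0113% held by cells that shared neither.

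**Figure D2:**
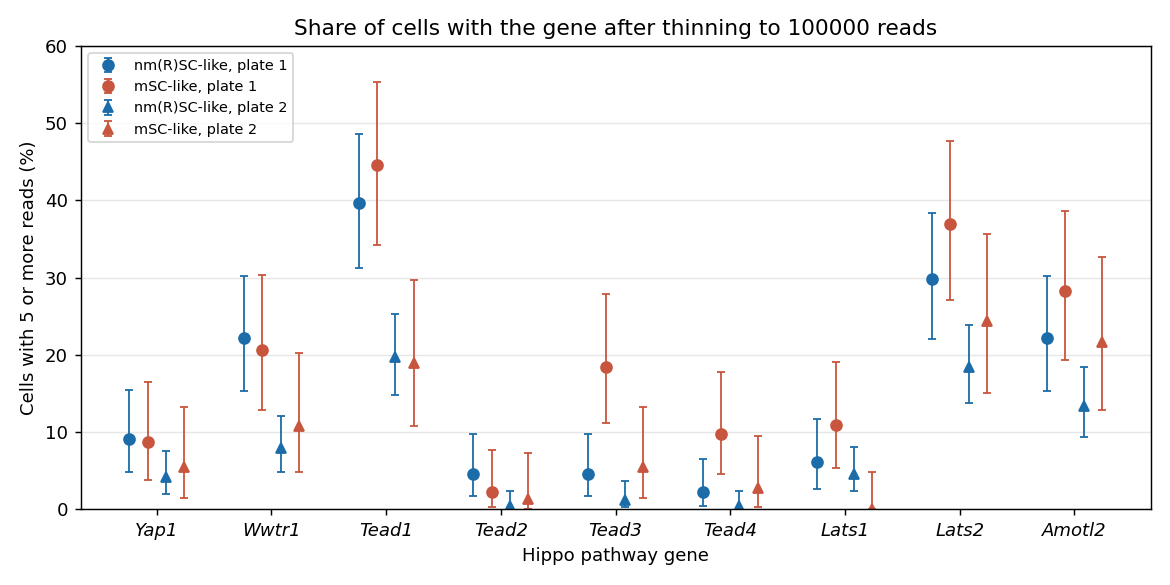
Percent of cells with 5 or more reads of each gene after thinning to 100000 reads, by class (blue nm(R)SC-like, red mSC-like) and plate (circles plate 1, triangles plate 2), with exact 95% binomial intervals. The class intervals overlap for every gene on both plates except Tead3 on plate 1.

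Under these settings, Tead3 was the one gene whose class intervals did not overlap on a plate. On plate 1 it was in 4.58% (1.70 to 9.70) and 18.5% (11.1 to 27.9) of cells, mSC-like being the higher. On plate 2 it was in 1.26% (0.260 to 3.62) and 5.41% (1.49 to 13.3), in the same order but with overlapping intervals. The gap on plate 1 rested on the settings. The intervals of all 9 genes overlapped there when cells were thinned to 50000 reads, without integration of the plates, or without the Scn7a-led cluster (5.26% against 18.5%), while Tead3 and Tead4 were separate without thinning, and Wwtr1, Tead3 and Tead4 with a minimum of 1000 genes. Tead4 had the same order on both plates, at 2.29% and 9.78% on plate 1 and at 0.418% and 2.70% on plate 2, with overlap. Tead2 was in 4.58% and 2.17% on plate 1, and in 0.418% and 1.35% on plate 2. Lats1 was in 6.11% and 10.9% on plate 1 and in 4.603% of the nm(R)SC-like cells on plate 2, and in 0 of 74 mSC-like ones, which allows a share of up to 4.05% (3 cells of 74) or, by the exact interval, 4.86%. At 1 or more reads, 1 of these 74 cells was scored. In all, 0 of the 9 genes had separate intervals in the same direction on both plates. No such count was made over all genes, here or for the intervals given below, so there is no background beside it.

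At this depth few cells showed both coactivators. Yap1 and Wwtr1 were scored together in 5 of 131 and 3 of 92 cells on plate 1, and in 3 of 239 and 0 of 74 on plate 2, the last of which allows a share of up to 4.05% by 3 cells. Wwtr1 alone was scored in 24, 16, 16 and 8 cells, and Yap1 alone in 7, 5, 7 and 4. A cell with Wwtr1 and no Yap1 was therefore the more frequent kind in each of the 4 sums. At least 1 Tead gene was scored in 45.8% and 60.9% of cells on plate 1 and in 20.9% and 27.0% on plate 2. Tead1 with no other Tead was scored in 45 of 60, 31 of 56, 45 of 50 and 14 of 20 of these cells, and, at 1 or more reads, in 61 of 89, 33 of 75, 61 of 79 and 21 of 31. Tead2, Tead3 or Tead4 was scored in 15 of 131 and 25 of 92 cells on plate 1, and in 5 of 239 and 6 of 74 on plate 2. None of the 9 genes was scored in 34 of 131 and 13 of 92 cells on plate 1, and in 116 of 239 and 27 of 74 on plate 2. A gene that is not scored in a cell may still be expressed there below the depth.

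Within the mSC-like class, Wwtr1 was uneven between the 2 clusters that made it up. One was led by Mfap5, Spp1 and Apod (72 cells, 55 on plate 1 and 17 on plate 2), and the other by Emid1, Pllp and Cuedc2 (137 cells, 76 and 61). This contrast was chosen after its values were seen, and is given with no test. In the Mfap5-led cluster Wwtr1 was at 9.41 CPM on plate 1 and 0.511 CPM on plate 2, against 115 and 44.6 CPM in the other mSC-like cluster. The 2 plates lay in the same order with no overlap. The plate 2 value is 7 reads in 5 of 17 cells. Among the 13 clusterings run, 11 had an mSC-like cluster led by Mfap5 beside another, and Wwtr1 was lower there on both plates in all 22 values, at 0.104 to 15.2 CPM against 39.0 to 130 CPM. These clusterings reuse the same cells, so they are not separate evidence.

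The share of cells scored for Wwtr1 followed the same order, at 4.65% (0.568 to 15.8) against 34.7% (21.7 to 49.6) on plate 1, and at 0 of 17 against 14.04% (6.26 to 25.8) on plate 2. A count of 0 of 17 cells allows a share of up to 17.6% (3 cells of 17), with an exact upper bound of 19.5%, so the plate 2 intervals overlap. The Mfap5-led cluster was the deeper on plate 1 and the shallower on plate 2, with a median of 181468 reads per cell against 138945 on plate 1, and of 507929 against 646579 on plate 2. In CPM, Tead1 differed less between them, at 109 and 180 CPM on plate 1 and at 52.5 and 57.9 CPM on plate 2. A single cell gave 89.3% of the Tead1 reads of the Mfap5-led cluster on plate 2. There Tead1 was scored in 2 of 17 cells, against 12 of 57 in the other cluster.

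Tead3 and Tead4 lay the other way within the mSC-like class. Tead3 was at 35.2 CPM in the Mfap5-led cluster and 12.1 CPM in the other on plate 1, and at 14.2 and 1.58 CPM on plate 2. Tead4 was at 41.8 and 7.02 CPM on plate 1 and at 5.03 and 1.27 CPM on plate 2, where each value came from 1 cell. The Tead3 share was 30.2% (17.2 to 46.1) against 8.16% (2.27 to 19.6) on plate 1, and 3 of 17 against 1 of 57 cells on plate 2. These pairs were likewise chosen after the values were seen, and the intervals overlap.

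Among the 3 nm(R)SC-like clusters, Wwtr1 was highest in the one led by Ednrb, at 152 and 162 CPM on plates 1 and 2. It was at 110 and 49.9 CPM in the Apoe-led cluster and at 12.6 and 27.0 CPM in the cluster led by Scn7a. A single cell gave 50.9% of the Wwtr1 reads of the Ednrb-led cluster on plate 2, and 82.4% and 75.9% of those of the Scn7a-led cluster, the one that also held Mfap5 on plate 1. Yap1 showed no such order, at 23.2 and 3.74 CPM in the Ednrb-led cluster on the 2 plates.

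**Figure D3:**
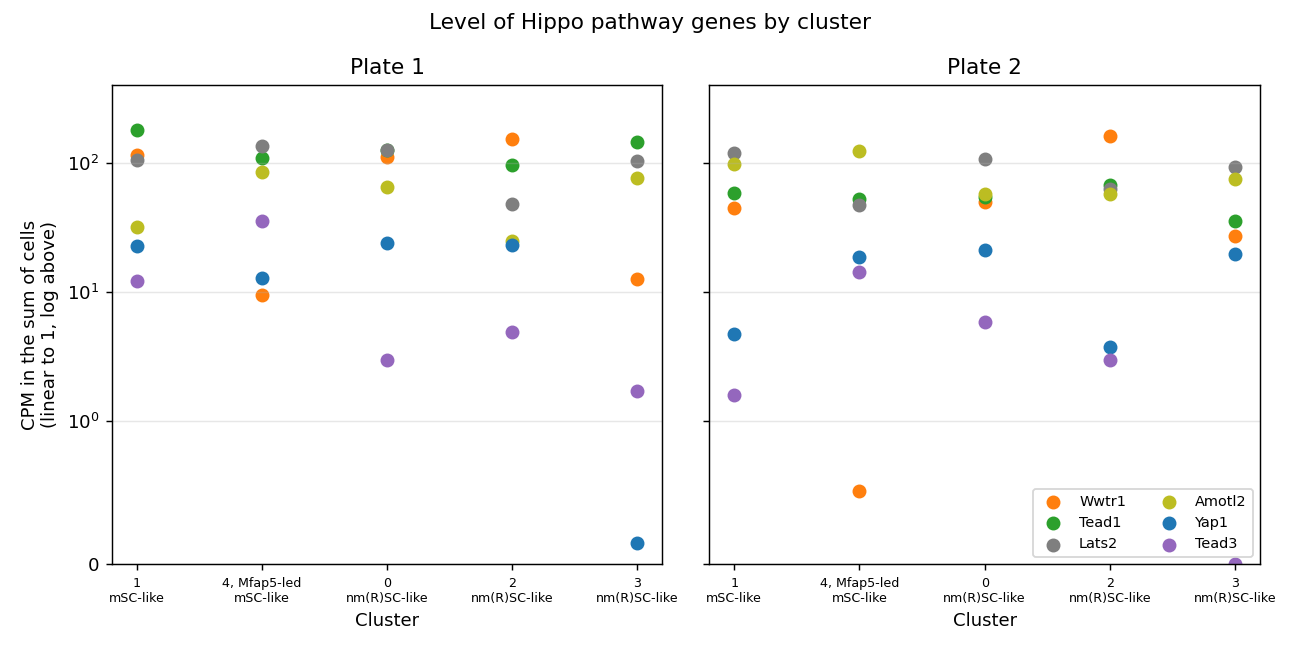
CPM of 6 Hippo pathway genes in the summed cells of each cluster (x axis, mSC-like clusters 1 and 4 first), with plate 1 on the left and plate 2 on the right, on an axis that is linear to 1 CPM and logarithmic above. Wwtr1 (orange) drops to 9.41 and 0.511 CPM in the Mfap5-led mSC-like cluster, while Tead3 (purple) is highest there.

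Over the 10 sums of cluster by plate, and among 8997 genes with a mean of 10 CPM or more, the genes most like Wwtr1 by Pearson correlation of log2(CPM + 1) were Actg1 (0.97), Tgif1 (0.96) and Brd3 (0.95). Those most like Tead1 were Uqcrb (0.95), mt-Nd4l (0.95) and Eid1 (0.93), and those most like Yap1 were Fdxr (0.91), Dpp7 (0.88) and Nicn1 (0.88). The 10 sums share 2 plates and their depths, and the highest of 8997 values is large by choice, so these are given as a description.

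The upstream genes of the pathway were taken as a list of 29 regulators, of which 24 could be tested. By edgeR 0 of the 24 were called, beside the 2.04% over all genes. At an unadjusted p under 0.05 there were 5 (20.8%, where the background was 11.2%), and by DESeq2 4 (16.7%, where it was 10.5%). Nf2, the membrane-linked tumour suppressor that activates Lats, was at 41.6 and 33.1 CPM on plate 1 and at 5.40 and 57.4 CPM on plate 2, so the plates gave opposite orders. These Nf2 sums rested on few cells. On plate 2, a single cell gave 77.2% of the reads of the Emid1-led mSC-like cluster, and another 99.7% of those of the Mfap5-led one. On plate 1, a single cell gave 64.5% of the reads of the Apoe-led nm(R)SC-like cluster. The Hippo kinase genes Stk3 (7.57, 31.5, 12.1 and 8.10 CPM) and Stk4 (13.4, 15.03, 6.04 and 30.9 CPM) showed no steady order, the values being given for plate 1 and then plate 2. The adaptor Sav1 stayed between 0.162 and 6.40 CPM. Mob1a, the Lats cofactor, was at 64.0 and 114 CPM on plate 1 and at 53.4 and 95.7 CPM on plate 2. Its log2 ratio of 0.98 ± 0.40 (SE) had the same direction on both plates with no overlap, but did not pass (edgeR adjusted p = 0.436, unadjusted p = 0.0470).

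The other 4 regulators at an unadjusted p under 0.05 were named after their values were seen. Vgll3, a Tead-binding cofactor, was at 194 and 79.0 CPM on plate 1 and at 191 and 55.9 CPM on plate 2 (log2 ratio -1.39, edgeR adjusted p = 0.175). Its share of cells followed, at 48.1% (39.3 to 57.0) against 26.1% (17.5 to 36.3) on plate 1 and at 35.1% (29.1 to 41.6) against 10.8% (4.78 to 20.2) on plate 2. The class intervals of Vgll3 thus did not overlap on either plate. Frmd6 was at 71.1 and 14.96 CPM, and at 60.4 and 6.84 CPM (log2 ratio -2.55, edgeR adjusted p = 0.193). Amotl1, the relative of Amotl2, was at 82.0 and 114 CPM, and at 37.0 and 112 CPM (log2 ratio 1.18, edgeR adjusted p = 0.419). Ptpn14, which holds Yap in the cytoplasm, was at 28.7 and 59.0 CPM, and at 3.57 and 35.6 CPM (log2 ratio 2.33, edgeR adjusted p = 0.419). By DESeq2 the 4 called were Frmd6, Vgll3, Ptpn14 and Dlg5. Vgll4, a competitor of Yap for Tead, was at 133 and 174 CPM on plate 1 and at 160 and 212 CPM on plate 2, with a log2 ratio of 0.55 (edgeR adjusted p = 0.649).

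**Figure D4:**
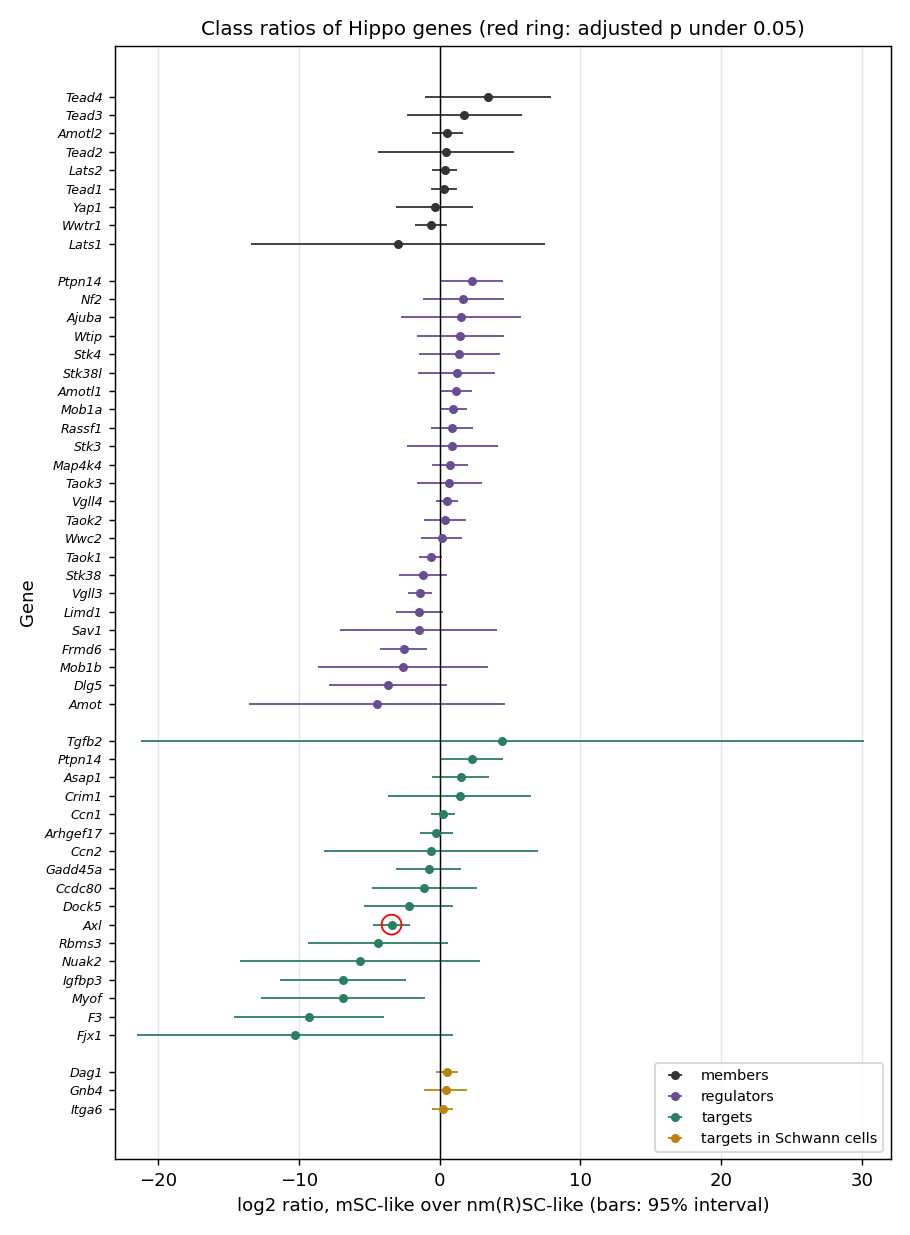
Log2 ratio of mSC-like over nm(R)SC-like for every tested gene of the 4 lists (points) with its 95% interval from the edgeR fit (bars). The 9 members all have intervals that span 0, and the red ring marks Axl, the one gene past the threshold; Ptpn14 stands in 2 lists.

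The target list held 20 genes known to respond to Yap and Taz in other cell types, of which 17 could be tested. One was called, Axl, a receptor tyrosine kinase, which was lower in mSC-like cells, beside 1.12% of all genes called in that direction. Axl was at 123 and 10.4 CPM on plate 1, and at 92.96 and 7.99 CPM on plate 2. Both nm(R)SC-like sums were above both mSC-like sums. The log2 ratio was -3.41 ± 0.53 (SE, 2 plates; edgeR adjusted p = 0.0385), with an interval of -4.70 to -2.11, and without the plate block the adjusted p was 0.0752. With a minimum of 2500 genes per cell it was 0.214, and without the Scn7a-led cluster 0.0507. The share of cells scored for Axl was 30.5% (22.8 to 39.2) against 6.52% (2.43 to 13.7) on plate 1 and 16.3% (11.9 to 21.6) against 2.70% (0.329 to 9.42) on plate 2, with no overlap on either plate.

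At an unadjusted p under 0.05 there were 5 targets (29.4%, background 11.2%), 4 of them lower in mSC-like cells. Besides Axl these were F3, Igfbp3 and Myof, and Ptpn14 was higher, all 4 named after their values were seen. F3, the tissue factor gene, was at 436 and 6.85 CPM on plate 1, and at 1905 and 0.162 CPM on plate 2, where the last value is 9 reads in 9 cells. The classes of F3 did not overlap, but their gap differed much between plates (log2 ratio -9.26 ± 2.19, SE; edgeR adjusted p = 0.134). DESeq2 called 6 of the 17 (35.3%, background 10.5%). Over the 17 targets the median log2 ratio was -1.07, with 12 below 0 (70.6%), beside a median of -0.05 and 52.0% below 0 over all genes tested. The list was chosen with results known, so this says nothing particular about it.

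Of 3 targets often used as readouts, Ccn1 was abundant, while Ccn2 and Ankrd1 had few or no reads. Ccn1, a secreted matrix protein gene, was at 1787 and 1509 CPM on plate 1 and at 2064 and 2832 CPM on plate 2, and was scored in 63.4% and 64.1% of cells on plate 1 and in 35.6% and 54.1% on plate 2. Its log2 ratio was 0.25 ± 0.36 (SE; edgeR adjusted p = 0.924), and its plates gave opposite orders. Ccn1 was highest in the same sum that had the highest total of dissociation genes, and the part of dissociation in its level was not tested. Ccn2 had 1, 0, 33 and 13 reads in the 4 sums, at most 0.234 CPM. Ankrd1 had no read in any of the 4 sums.

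**Figure D5:**
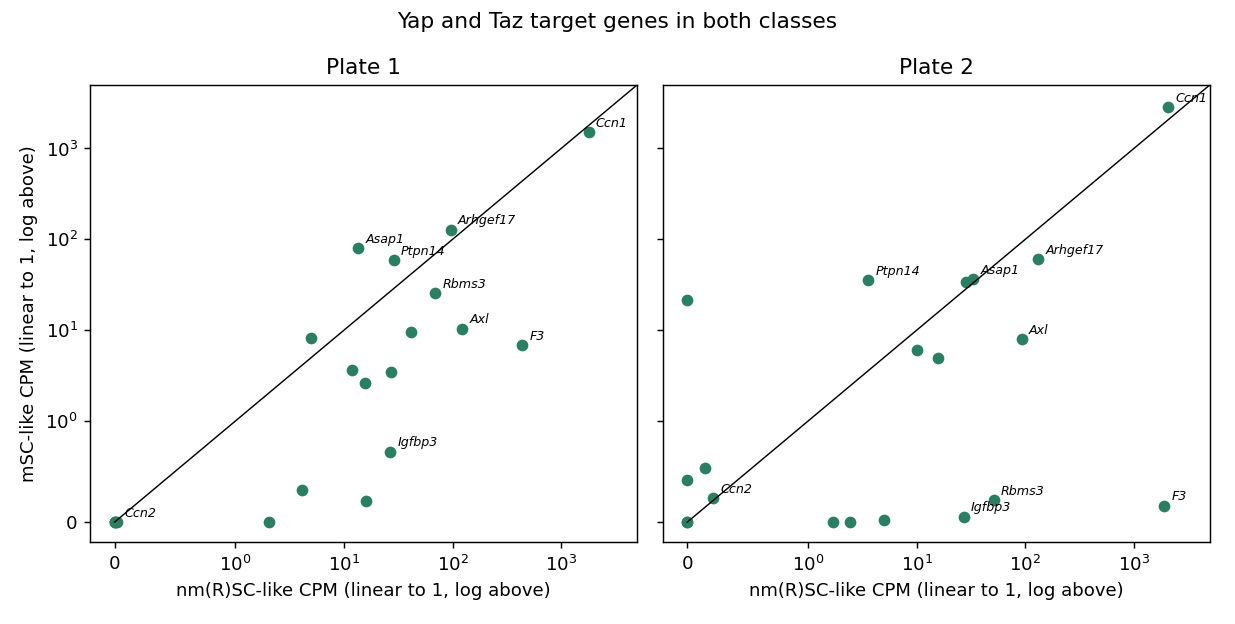
CPM of the 20 target genes in nm(R)SC-like (x axis) against mSC-like cells (y axis), with plate 1 on the left and plate 2 on the right, on axes that are linear to 1 CPM and logarithmic above, with the line of equal level. Axl, F3 and Igfbp3 lie below the line on both plates, and Ccn1 lies near it at 1509 to 2832 CPM.

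Itga6, Dag1 and Gnb4, genes whose products are a laminin receptor subunit, dystroglycan and a G protein subunit, are targets of Yap and Taz described in Schwann cells. By edgeR 0 of the 3 were called, 0 at an unadjusted p under 0.05, and by DESeq2 0. Itga6 was at 713.8 and 742 CPM on plate 1 and at 340 and 367 CPM on plate 2 (log2 ratio 0.23 ± 0.31, SE; edgeR adjusted p = 0.916). Dag1 was at 447 and 667 CPM and at 248 and 286 CPM (log2 ratio 0.54 ± 0.32, SE; edgeR adjusted p = 0.648). Both were lower on plate 2 in both classes. Gnb4 was at 85.1 and 49.1 CPM on plate 1 and at 51.3 and 131 CPM on plate 2, in opposite orders.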

How the data were processed

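Raw read counts per gene and cell were deposited by the authors for 768 cells. Per the labels, reads were demultiplexed with bcl2fastq, aligned with STAR 2.6.1c to GRCm38.p5 and counted with featureCounts; the methods of the study name another STAR version and a human build, and the strand setting is not given in the sources used here. Of the 25700 gene IDs, 25664 were found in GENCODE M21, which gave symbols, positions and exon lengths. The members and lists were chosen with earlier results of these data known.

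Cells with 1500 or more detected genes were clustered with Seurat 5.3.0 (scaling to 100000, CCA integration of the plates, 12 dimensions, resolution 0.5), with all genes of the Hippo lists left out, and clusters were named from fixed markers, so the classes may differ from those of the study. No doublet caller was run, and no 2 cells held identical counts. All other genes were split at random into 2 parts, each tested in classes built from the other. Of the 674 cells, 89.0% and 89.6% had the same class in these 2 clusterings as in the one used for the Hippo lists. The shares over all genes thus rest on partly different classes from the results of the members. Counts were summed per plate and class, and edgeR 4.0.16 (quasi-likelihood, TMM, filterByExpr with a minimum count of 10) was run with plate as a block, since both classes of a plate came from the same mice; this leaves 1 residual degree of freedom, and p-values rest on 2 plates. DESeq2 1.42.0 was an alternative. Adjusted p-values are Benjamini-Hochberg over all genes tested, with a threshold of 0.05. The scripts were tested on simulated data. The genes named are all members, Nf2, Stk3, Stk4, Sav1, Mob1a, Vgll4, Ccn1, Ccn2, Ankrd1, Itga6, Dag1 and Gnb4, and any other listed gene past the threshold; others were named after their values were seen. Intervals have 95% confidence. Alternatives changed the test, scaling, filter, block, minimum genes (1000 or 2500), plate integration, held-out genes, thinning, correction for index exchange and, added after seeing the data, leaving out the deepest cell of each gene or the Scn7a-led cluster.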

Additional observations from a re-analysis of the deposited data

Results flagged for a closer look

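The 94 cells with under 1500 detected genes entered no comparison. In them, 4 reads of Yap1, 32 of Wwtr1, 65 of Tead1, 6 of Tead2, 23 of Lats2 and 52 of Amotl2 were counted, above the 3 reads that a count of 0 allows. Tead3 had 0 reads there, and Tead4 and Lats1 had 1 each. With 2 plates, no group was large enough for a check of samples that stand apart.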

How the results depend on the processing

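For the 9 members the number called was 0 under every alternative run. The number of all genes called moved from 272 to 1399 with DESeq2, 44 without the replicate block and 165 with no genes held out of the clustering. DESeq2 called 4 regulators, against 0. The 1 target called became 6 with DESeq2, 0 without the replicate block, with a minimum of 2500 genes per cell or without the cells of the Scn7a-led cluster, and 2 with a minimum of 1000 genes, without integration of the plates, with sums of thinned cells, and with the deepest cell of each gene left out of each sum, an alternative added, like that of the Scn7a-led cluster, after seeing the data. Axl kept its direction throughout, at -3.41 without the block, -2.87 with a minimum of 2500 genes and -3.25 without the Scn7a-led cluster, where it no longer passed. Detection intervals were separate for 0 members on both plates under every alternative, and for 0 to 1 with 1 plate left out, Tead3 being the 1 on plate 1. These counts too have no count over all genes beside them. On plate 1 they were separate for 0 to 3 members over the alternatives, and on plate 2 for 0. Log2 ratios also moved in size: Wwtr1 from -0.62 to -1.35 with 2500 genes and -0.27 with thinned cells, and Tead4 from 3.43 to 1.21 with 2500 genes and 5.32 without the Scn7a-led cluster. Log2 ratios that changed sign were Tead2 (-1.23 with 2500 genes, -1.06 without the deepest cells), Lats1 (0.018 without the block), Lats2 (-0.14 without integration, -0.012 with thinned cells), Amotl2 (-0.025 with thinned cells), Ccn1 (-0.19 with 2500 genes, -0.11 without integration) and Ccn2 (0.14 without the block, 0.12 with 1000 genes), none of which passed the threshold; the cause was not tested. Over the 21 named genes and 12 alternatives with a test, 235 values kept their direction and side of the threshold, 10 changed sign and 3 no longer passed. The shift of the median log2 ratio of all genes without TMM was to -0.15. Tead2, Tead4 and Lats1 had as few as 26, 14 and 4 reads in a sum.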
